A study of Saccharomyces cerevisiae with 12 samples.

Results

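The autophagy-related genes of budding yeast were followed as one group: every gene whose array annotation gave a single symbol made of ATG and a number. The array measured 36 such genes among the 5656 genes tested, each read from the probe set with the highest mean over the 12 arrays. They were sorted by textbook role into the kinase complex that starts autophagy (5 genes), the 2 ubiquitin-like conjugation systems (8 genes), proteins of membrane supply and lipids (10 genes), receptors and adaptors of selective autophagy (9 genes), proteins that act inside or at the membrane of the vacuole (3 genes), and ATG26, which stands alone. ATG6 and ATG24 carry other names in the annotation (VPS30 and SNX4) and were counted with the other genes of the pathway.

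The study compared a gpa2 deletion strain, MLY132, with the wild-type strain MLY61 on Affymetrix Yeast S98 arrays, 3 cultures a group. The groups were deletion cells in SLAM, deletion cells in YPM, wild-type cells in SLAM and wild-type cells in YPM. Both strains are MATa/alpha diploids homozygous for ura3-52, and MLY132 also has both GPA2 copies replaced by a G418 resistance marker. YPM is a rich maltose medium in which cultures grew to an OD600 of 1.0. For SLAM, such cells were filtered and kept for 2 h at 30 °C in a maltose medium whose nitrogen source was 50 µM ammonium sulfate. The transfer itself, the change from rich to defined medium and the shortage of nitrogen cannot be told apart, and neither can the deletion and any other difference between the 2 strains, since each genotype is 1 strain. In whole cultures, more transcript per cell and more cells with the transcript cannot be told apart either.

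Autophagy wraps cytoplasm or organelles in a double membrane and delivers them to the vacuole, yeast's lysosome, where the contents are broken down and reused. In fed cells the TORC1 kinase holds back the Atg1 kinase complex, and nitrogen starvation releases it. Atg9 vesicles, a phosphatidylinositol 3-kinase complex and lipid transfer by Atg2 then build the membrane, while Atg8 is attached to its lipid and is used up with each vesicle. Selective forms pick their cargo through receptors that bind Atg8 or the adaptor Atg11. GPA2 encodes a G protein alpha subunit that acts upstream of cAMP and protein kinase A, a kinase known to restrain autophagy.

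As a check of the labels, GPA2 read between 5.14 and 5.60 (log2 expression) on the 6 deletion arrays and between 9.70 and 11.10 on the 6 wild-type arrays. The highest deletion reading, 5.60, is used here as a guide to an unexpressed gene, although it comes from a different probe set; a fold from a group mean at or below it is given as "at least". Of the 36 ATG genes, 27 read above it on every array, and ATG4, ATG16 and ATG17 averaged below it over the 12 arrays. Haploid-specific genes, which a/alpha diploids repress, averaged 5.81 to 6.32 on deletion SLAM arrays, 5.52 to 5.88 on deletion YPM arrays, 6.00 to 6.43 on wild-type SLAM arrays and 5.54 to 5.91 on wild-type YPM arrays; 8 to 10 of the 17 had group means at or below 5.60, while STE4 and MFA2 had group means of 7.98 to 8.86. Some members were higher in SLAM: MFA1 averaged 8.17 in SLAM and 6.49 in YPM in deletion cells, and 8.23 and 6.41 in wild-type cells. RME1 averaged 8.32 in SLAM and 7.05 in YPM in deletion cells, and 7.93 and 6.80 in wild-type cells, and FAR1 5.85 and 5.15 in deletion cells, and 6.04 and 4.77 in wild-type cells. Others had lower means in SLAM: STE3 averaged 6.46 in SLAM and 6.69 in YPM in deletion cells, and 6.43 and 6.67 in wild-type cells. HO and BAR1, with group means near or below 5.60, were also lower in SLAM in both strains. The part of the haploid-specific genes in the results was not tested. On the first principal component of all genes (59.4% of the variance), wild-type SLAM replicate 2 stood at -10.8, against 19.4 and 28.4 for its group, and deletion YPM replicate 3 at -6.17, against -27.3 and -34.5. Where leaving out one of these arrays changed an ATG call between media or moved a called value by over 1.5 times, the value without it is given.

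ATG transcripts were higher in SLAM than in YPM in both strains. In gpa2 deletion cells 26 of 36 ATG genes rose and none fell (0 lower at an unadjusted p under 0.05 as well), where 13.4% of all genes rose and 14.8% fell by the same limma test at an adjusted p under 0.05. In wild-type cells 14 of 36 rose and none fell (again 0 lower unadjusted), against 5.23% and 7.34% of all genes. The median log2 difference of the 36 genes was 1.11 in deletion cells and 0.87 in wild-type cells, and that of all genes 0.01 and -0.05. The difference was positive for all 36 genes in deletion cells and for 35 in wild-type cells, ATG17 being the exception (log2 -0.12, SE 0.27, adjusted p = 0.812). With wild-type SLAM replicate 2 left out, 33 were positive and ATG17 (-0.05), ATG18 (-0.43) and ATG41 (-0.06) were not. SLAM and YPM values did not overlap for 30 ATG genes in deletion cells and for 18 in wild-type cells, where 44.6% and 35.5% of all genes did not overlap.

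**Figure D1:**
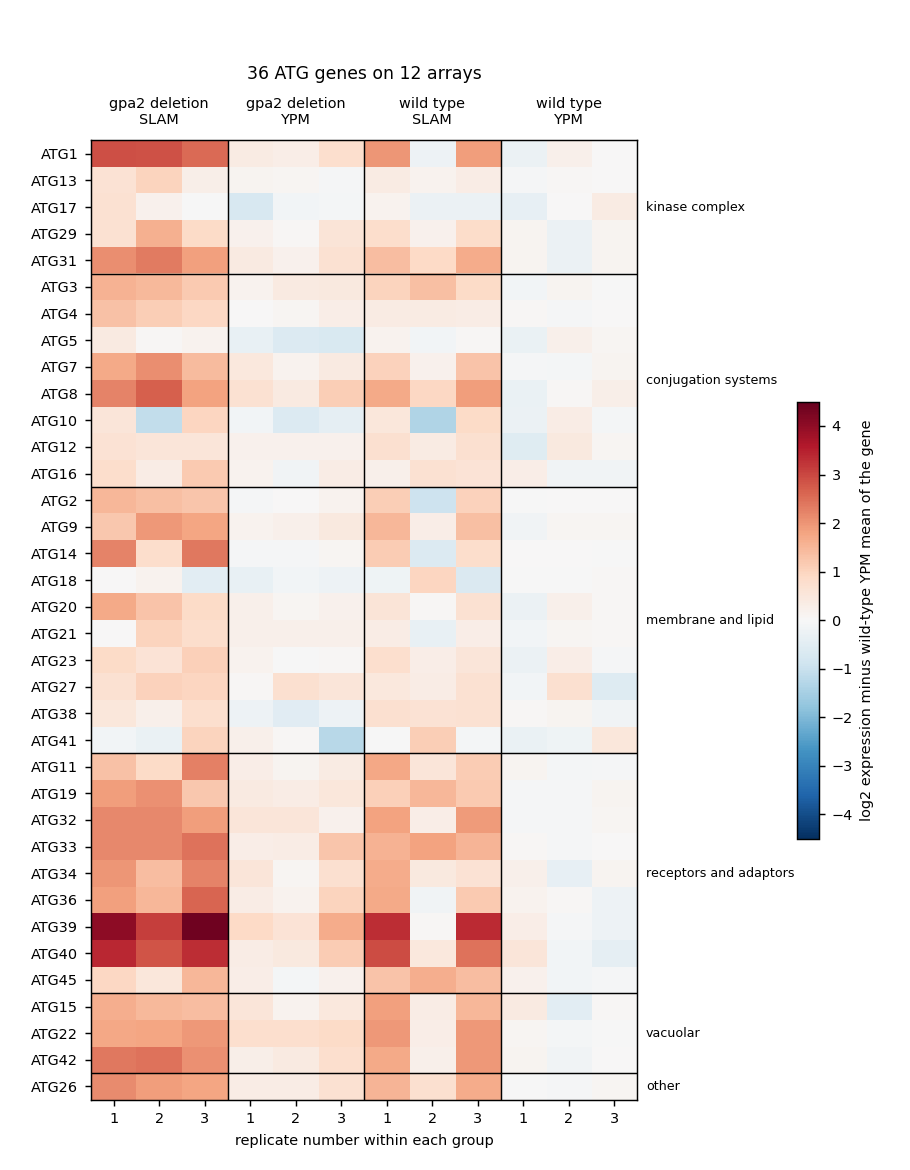
Log2 expression of each ATG gene (rows, grouped by role) on each array (columns, by group and replicate number), minus that gene's mean in wild-type YPM cells. Red is higher and blue lower; the SLAM columns are mostly red in both strains, with wild-type SLAM replicate 2 paler than replicates 1 and 3 for ATG1, ATG39 and ATG40 but not for ATG33 or ATG45.

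Across the array the 4 groups fell in the same order for most ATG genes. Deletion cells in SLAM had the highest mean for 31 of 36 genes (34.4% of all genes), and wild-type cells in YPM the lowest for 29 (26.9% of all genes). The full order of deletion SLAM, wild-type SLAM, deletion YPM and wild-type YPM, from high to low, held for 26 of the 36, or 72.2%, and for 16.4% of all genes. Neighbours in this order were mostly not separated by a test: deletion against wild type passed for 1 gene in SLAM and for none in YPM, as given below, and wild-type SLAM against deletion YPM was not tested. Relative to each gene's wild-type YPM mean, the median ATG gene stood at 1.53, 1.39 and 1.31 on the deletion SLAM arrays and at 0.24, 0.16 and 0.40 on the deletion YPM arrays. In wild-type cells it stood at 1.08, 0.32 and 0.94 on the SLAM arrays and between -0.04 and 0.02 on the YPM arrays. Deletion SLAM arrays were thus high without exception, and wild-type SLAM replicate 2 lay inside the range of the deletion YPM arrays.

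**Figure D2:**
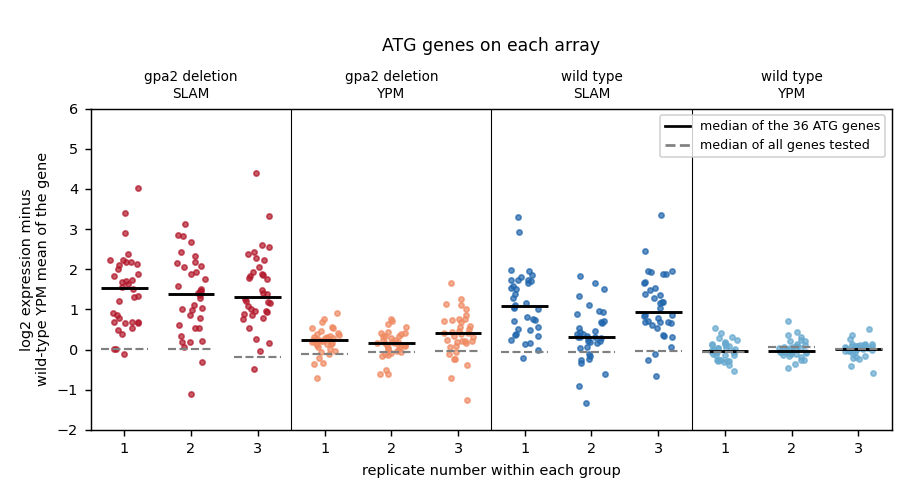
Each point is 1 of the 36 ATG genes on 1 array, as log2 expression minus the gene's wild-type YPM mean (vertical axis), with arrays by group and replicate on the horizontal axis. Black bars are the ATG medians, 1.31 to 1.53 on deletion SLAM arrays and 1.08, 0.32 and 0.94 on wild-type SLAM arrays; dashed bars are the medians of all genes, which stay within 0.2 of 0.

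Over the 36 genes the SLAM differences in deletion and wild-type cells had a Pearson correlation of 0.779 and a Spearman correlation of 0.731, and over all 5656 genes 0.851 and 0.831; these are correlations across genes, which are not independent replicates. The genes that rose in both strains numbered 13: ATG3, ATG8, ATG9, ATG15, ATG19, ATG26, ATG31, ATG32, ATG33, ATG38, ATG40, ATG42 and ATG45. A further 13 passed in deletion cells but not in wild-type cells, and ATG22 passed in wild-type cells but not in deletion cells. That split is not a strain difference, which was tested separately below.

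In the kinase complex, ATG1 and the scaffold gene ATG31 had the largest differences. In deletion cells ATG1, ATG13 and ATG31 rose, 3 of 5, and in wild-type cells ATG31 did, 1 of 5. For this and each later role, the share of all genes that rose was 13.4% in deletion cells and 5.23% in wild-type cells. ATG1, the protein kinase itself, read 9.84, 9.81 and 9.51 in deletion cells in SLAM, against 7.31, 7.23 and 7.71 in YPM. In wild-type cells it read 8.93, 6.71 and 8.82 in SLAM, against 6.68, 7.18 and 6.98 in YPM. The deletion groups stood well apart, while wild-type SLAM replicate 2 lay among the YPM arrays. ATG1 rose 4.93-fold in deletion cells (log2 2.30, SE 0.47, n = 3 each, adjusted p = 0.00395). Its wild-type difference was log2 1.21 (SE 0.47, adjusted p = 0.102), and without wild-type SLAM replicate 2 it was 1.93 (adjusted p = 0.000559).

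ATG31, a subunit of the Atg17-Atg29-Atg31 scaffold that gathers the kinase under starvation, read 7.49, 7.71 and 7.23 in deletion cells in SLAM, against 5.77, 5.58 and 6.08 in YPM. Wild-type cells gave 6.76, 6.26 and 7.06 in SLAM, against 5.51, 5.12 and 5.51 in YPM. Neither strain's groups overlapped. It rose 3.17-fold in deletion cells (log2 1.67, SE 0.25, adjusted p = 0.000991, the smallest of the 36 genes there). The wild-type rise was at least 2.48-fold (log2 1.31, SE 0.25, adjusted p = 0.0114). ATG13, the regulatory subunit that TORC1 phosphorylates, read 8.84, 9.17 and 8.45 in deletion cells in SLAM, against 8.29, 8.25 and 8.12 in YPM. The wild-type values were 8.56, 8.33 and 8.51 in SLAM, against 8.13, 8.22 and 8.18 in YPM. The groups did not overlap in either strain, and the rise of log2 0.60 (SE 0.21, adjusted p = 0.0474) passed in deletion cells only just, losing the call when any of 10 single arrays was left out (adjusted p up to 0.145); the wild-type difference was 0.29 (SE 0.21, adjusted p = 0.363).

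ATG17, the scaffold subunit of nonselective autophagy, stayed near the reading of an unexpressed gene, at 6.23, 5.74 and 5.51 in deletion cells in SLAM and 4.83, 5.43 and 5.44 in YPM. On wild-type arrays it stood at 5.70, 5.29 and 5.29 in SLAM, against 5.16, 5.57 and 5.90 in YPM. The deletion groups did not overlap and the wild-type groups did. Its difference of log2 0.59 in deletion cells (SE 0.27, adjusted p = 0.128) did not pass. The third scaffold gene, ATG29, was also dim, with differences of log2 0.78 (adjusted p = 0.0567) in deletion cells and 0.61 (adjusted p = 0.155) in wild-type cells. The deletion difference of ATG29 passed in the fit without wild-type SLAM replicate 2 (adjusted p = 0.034) and without deletion YPM replicate 3 (0.93, adjusted p = 0.0447).

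**Figure D3:**
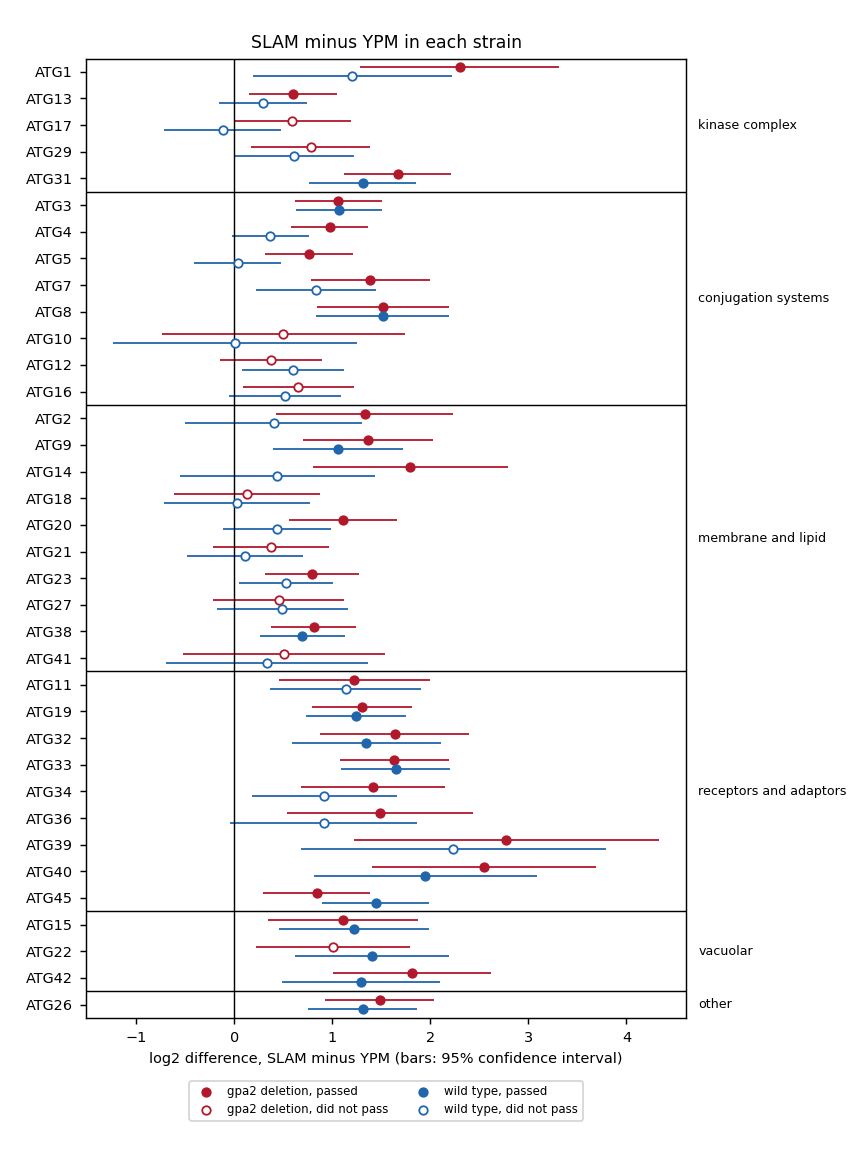
SLAM minus YPM difference in log2 expression (horizontal axis) for each ATG gene, grouped by role, in gpa2 deletion cells (red, upper mark of each pair) and wild-type cells (blue, lower mark), with 95% confidence intervals from the limma fit; filled marks passed at an adjusted p under 0.05. Differences run from 0.13 (ATG18) to 2.78 (ATG39) in deletion cells and from -0.12 (ATG17) to 2.23 (ATG39) in wild-type cells.

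In the conjugation systems, ATG8, ATG7, ATG3, ATG4 and ATG5 rose in deletion cells, 5 of 8, and ATG8 and ATG3 in wild-type cells, 2 of 8. ATG8, the ubiquitin-like protein that is joined to phosphatidylethanolamine, read 11.69, 12.16 and 11.30 in deletion cells in SLAM, against 10.15, 9.87 and 10.57 in YPM. In wild-type cells it read 11.18, 10.41 and 11.36 in SLAM, against 9.18, 9.51 and 9.73 in YPM. Its groups did not overlap in either strain, and the 2 rises were close in size, 2.87-fold in deletion cells (log2 1.52, SE 0.31, adjusted p = 0.0041) and 2.86-fold in wild-type cells (log2 1.51, SE 0.31, adjusted p = 0.015). The difference between those responses was log2 0.01, with a 95% interval from -0.95 to 0.96. With 3 arrays a group, that interval holds strain differences of up to nearly 2-fold either way. Larger estimates in this comparison did not pass the adjusted test either, such as log2 1.36 for ATG14 (adjusted p = 0.98).

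ATG3, the enzyme that transfers Atg8 to its lipid, likewise rose by log2 1.06 (SE 0.20, adjusted p = 0.00301) in deletion cells and 1.07 (SE 0.20, adjusted p = 0.011) in wild-type cells. ATG7, the activating enzyme shared by both systems, rose 2.62-fold in deletion cells (log2 1.39, SE 0.28, adjusted p = 0.0039), and its wild-type difference was log2 0.83 (SE 0.28, adjusted p = 0.0674), or 1.15 (adjusted p = 0.00626) without wild-type SLAM replicate 2. ATG4, the protease that trims Atg8 and frees it again from the lipid, read 6.12, 5.91 and 5.74 in deletion cells in SLAM, against 4.83, 4.90 and 5.12 in YPM. Wild-type cells gave 5.18, 5.19 and 5.16 in SLAM, against 4.85, 4.76 and 4.82 in YPM. Only the deletion SLAM arrays exceeded the reading of an unexpressed gene. Its rise in deletion cells was at least 1.97-fold (log2 0.97, SE 0.18, adjusted p = 0.00264).

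Genes of the Atg12 branch mostly missed the threshold. ATG5, which receives Atg12, rose by log2 0.76 in deletion cells (SE 0.21, adjusted p = 0.0164), where its YPM mean of 8.42 was below the wild-type YPM mean of 8.97, and stood at 0.03 (SE 0.21, adjusted p = 0.93) in wild-type cells. ATG12 differed by log2 0.38 in deletion cells and 0.60 in wild-type cells, ATG16 by 0.66 and 0.52, and ATG10, the transferring enzyme, by 0.50 and 0.01; the adjusted p-values of these 6 differences lay between 0.0823 and 0.993.

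**Figure D4:**
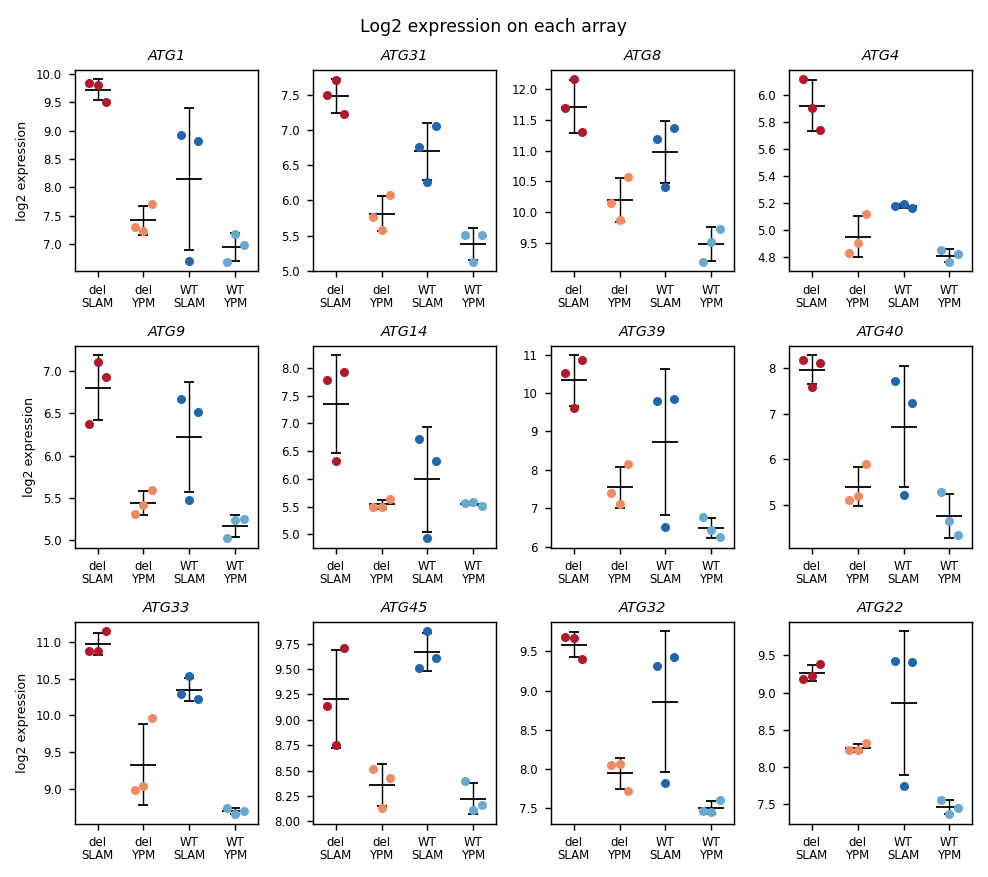
Log2 expression of 12 ATG genes on every array, with a panel per gene; points are arrays, long bars the group mean and whiskers 1 SD (n = 3), for deletion SLAM (del SLAM), deletion YPM, wild-type SLAM (WT SLAM) and wild-type YPM. Each vertical axis has its own range. ATG33 and ATG45 show 3 wild-type SLAM arrays together, whereas ATG1, ATG14, ATG39 and ATG40 show wild-type SLAM replicate 2 near the YPM arrays.

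Among membrane and lipid genes, 6 of 10 rose in deletion cells (ATG2, ATG9, ATG14, ATG20, ATG23 and ATG38) and 2 of 10 in wild-type cells (ATG9 and ATG38). ATG9, the membrane protein whose vesicles seed the new membrane, read 6.37, 7.11 and 6.93 in deletion cells in SLAM, against 5.31, 5.41 and 5.59 in YPM. The wild-type values were 6.67, 5.48 and 6.52 in SLAM, against 5.02, 5.24 and 5.25 in YPM. Every SLAM array was above every YPM array of its strain. ATG9 rose at least 2.58-fold in deletion cells (log2 1.36, SE 0.30, adjusted p = 0.00621), and the wild-type rise was at least 2.08-fold (log2 1.06, SE 0.30, adjusted p = 0.0427). The wild-type call was lost when any wild-type array other than SLAM replicate 2 was left out (adjusted p up to 0.15). It was also lost without deletion YPM replicate 1 or 2 (adjusted p up to 0.0598).

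ATG14 directs the lipid kinase complex to autophagy. It read 7.78, 6.33 and 7.92 in deletion cells in SLAM, against 5.50, 5.50 and 5.64 in YPM, a rise of at least 3.47-fold (log2 1.80, SE 0.46, adjusted p = 0.0122). On wild-type arrays it stood at 6.71, 4.93 and 6.33 in SLAM, against 5.56, 5.58 and 5.52 in YPM. That difference was log2 0.44 (SE 0.46, adjusted p = 0.548), or 0.97 (adjusted p = 0.0897) without wild-type SLAM replicate 2, which read below all 3 YPM arrays. The call in deletion cells was lost without deletion SLAM replicate 1 (log2 1.58, adjusted p = 0.0573) or replicate 3 (1.51, adjusted p = 0.0505).

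ATG38, a further subunit of that complex, rose by log2 0.81 (SE 0.20, adjusted p = 0.0105) in deletion cells and 0.69 (SE 0.20, adjusted p = 0.0422) in wild-type cells. Its wild-type call was lost when any wild-type array other than SLAM replicate 2 was left out (adjusted p up to 0.148). The same call was lost without deletion SLAM replicate 1 or deletion YPM replicate 1 or 2 (adjusted p up to 0.0624). ATG2, the lipid transfer protein, rose by log2 1.33 (SE 0.42, adjusted p = 0.0323) in deletion cells. That call was lost when any deletion array was left out (adjusted p up to 0.0966). The wild-type value of ATG2, 0.40 (adjusted p = 0.547), became 1.06 (adjusted p = 0.00277) without wild-type SLAM replicate 2. The sorting nexin gene ATG20 (log2 1.11, SE 0.25, adjusted p = 0.00686) and ATG23, needed for Atg9 traffic (0.79, SE 0.22, adjusted p = 0.0191), rose in deletion cells, with wild-type differences of 0.44 and 0.53 that did not pass. No call was made in either strain for ATG18 and ATG21, which bind phosphatidylinositol 3-phosphate, ATG27, which travels with Atg9, and ATG41, which acts on Atg9 vesicles, with differences of 0.13 to 0.51 in deletion cells and 0.03 to 0.49 in wild-type cells.

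Of the genes of selective autophagy, all 9 rose in deletion cells, by log2 0.84 to 2.78 (median 1.49), and 5 of 9 rose in wild-type cells, where the 9 differences ran from 0.91 to 2.23 (median 1.35). The 2 receptors of the endoplasmic reticulum had the largest differences of all 36 genes. ATG39, the receptor for the nuclear envelope and perinuclear reticulum, read 10.51, 9.60 and 10.87 in deletion cells in SLAM, against 7.39, 7.11 and 8.15 in YPM. In wild-type cells it read 9.79, 6.52 and 9.84 in SLAM, against 6.77, 6.43 and 6.25 in YPM. It rose 6.85-fold in deletion cells (log2 2.78, SE 0.72, adjusted p = 0.0131). That call was lost without deletion YPM replicate 2 (log2 2.55, adjusted p = 0.0541). The wild-type difference of log2 2.23 (SE 0.72, adjusted p = 0.0584) did not pass; without SLAM replicate 2, which read within the YPM range, it was 3.33 (adjusted p = 0.000517).

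ATG40, the receptor for the reticulum of the cell periphery, read 8.17, 7.59 and 8.10 in deletion cells in SLAM, against 5.11, 5.21 and 5.90 in YPM. Wild-type cells gave 7.70, 5.23 and 7.22 in SLAM, against 5.30, 4.65 and 4.35 in YPM. The YPM arrays of both strains lay near the reading of an unexpressed gene, and so did wild-type SLAM replicate 2. ATG40 rose at least 5.84-fold in deletion cells (log2 2.55, SE 0.52, adjusted p = 0.0042), and the wild-type rise was at least 3.86-fold (log2 1.95, SE 0.52, adjusted p = 0.0339). Without wild-type SLAM replicate 2 the wild-type value was 2.70 (adjusted p = 0.000826). The wild-type call was lost without wild-type SLAM replicate 1 or 3 or wild-type YPM replicate 2 or 3 (adjusted p up to 0.13). It was also lost without deletion SLAM replicate 1 (adjusted p = 0.0503).

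Both mitophagy genes rose in both strains. ATG32, the mitochondrial receptor, read 9.68, 9.67 and 9.40 in deletion cells in SLAM, against 8.05, 8.07 and 7.72 in YPM. The wild-type values were 9.32, 7.82 and 9.43 in SLAM, against 7.47, 7.45 and 7.61 in YPM. Its rises were 3.11-fold in deletion cells (log2 1.64, SE 0.35, adjusted p = 0.00504) and 2.54-fold in wild-type cells (log2 1.35, SE 0.35, adjusted p = 0.0309), with no overlap in either strain.

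ATG33, a mitochondrial outer membrane protein, read 10.88, 10.88 and 11.14 in deletion cells in SLAM, against 8.99, 9.04 and 9.97 in YPM. On wild-type arrays it stood at 10.29, 10.53 and 10.23 in SLAM, against 8.75, 8.66 and 8.71 in YPM. All 6 SLAM arrays were high, wild-type replicate 2 included, and deletion YPM replicate 3 was the highest YPM array. ATG33 rose 3.10-fold in deletion cells (log2 1.63, SE 0.26, adjusted p = 0.0012) and 3.13-fold in wild-type cells (log2 1.64, SE 0.26, adjusted p = 0.00554), and was the 1 gene of the 36 whose wild-type call held under all 24 alternatives.

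The cytoplasm-to-vacuole receptor genes ATG19 and ATG34 lie next to each other in the yeast gene table, with no gene between them. ATG19, the receptor of aminopeptidase I, read 11.19, 11.36 and 10.53 in deletion cells in SLAM, against 9.73, 9.64 and 9.82 in YPM. In wild-type cells it read 10.37, 10.81 and 10.49 in SLAM, against 9.26, 9.25 and 9.43 in YPM. It rose in both strains without overlap, by log2 1.30 (SE 0.23, adjusted p = 0.00235) in deletion cells and 1.24 (SE 0.23, adjusted p = 0.0109) in wild-type cells. A further ATG19 probe set, with a mean of 4.45 that lies under the reading of an unexpressed gene, gave 0.07 in deletion cells and 0.73 in wild-type cells. ATG34, the receptor of alpha-mannosidase, rose by log2 1.42 (SE 0.34, adjusted p = 0.00896) in deletion cells; its wild-type difference was 0.92 (SE 0.34, adjusted p = 0.0881), or 1.16 (adjusted p = 0.0331) without wild-type SLAM replicate 2.

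ATG11, the adaptor that brings receptors to the kinase complex, read 8.20, 7.73 and 9.15 in deletion cells in SLAM, against 7.17, 6.98 and 7.25 in YPM. Wild-type cells gave 8.60, 7.41 and 8.02 in SLAM, against 6.99, 6.80 and 6.83 in YPM. No groups overlapped, and the rise of log2 1.22 in deletion cells passed (SE 0.35, adjusted p = 0.0227). That call was lost without deletion SLAM replicate 1 or 3 or deletion YPM replicate 1 or 2 (adjusted p up to 0.0807). The wild-type difference of 1.14 missed (adjusted p = 0.054), although it passed without wild-type SLAM replicate 2 (1.43, adjusted p = 0.015). ATG36, the peroxisome receptor, rose by log2 1.49 (SE 0.44, adjusted p = 0.0247) in deletion cells. That call was lost without deletion SLAM replicate 1 or 3 or deletion YPM replicate 1 or 2 (adjusted p up to 0.0961). Its wild-type difference was 0.91 (adjusted p = 0.173), and without wild-type SLAM replicate 2 it was 1.45 (adjusted p = 0.0146).

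ATG45, a glycogen receptor, was the member whose SLAM mean was lower in deletion than in wild-type cells by the most. It read 9.14, 8.75 and 9.71 in deletion cells in SLAM, against 8.52, 8.13 and 8.43 in YPM. The wild-type values were 9.51, 9.87 and 9.61 in SLAM, against 8.40, 8.11 and 8.16 in YPM. It rose 1.79-fold in deletion cells (log2 0.84, SE 0.25, adjusted p = 0.0261) and 2.72-fold in wild-type cells (log2 1.44, SE 0.25, adjusted p = 0.00841), and the difference between these responses did not pass (log2 -0.60, 95% interval -1.37 to 0.17). The deletion call was lost without deletion SLAM replicate 1 or 3 or deletion YPM replicate 1 or 2 (adjusted p up to 0.11). The wild-type call was lost without wild-type YPM replicate 2 (adjusted p = 0.0518).

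Of the vacuolar genes, 2 of 3 rose in deletion cells (ATG15 and ATG42) and all 3 in wild-type cells. ATG42, a carboxypeptidase of the vacuole, read 11.08, 11.14 and 10.77 in deletion cells in SLAM, against 8.97, 9.12 and 9.47 in YPM. On wild-type arrays it stood at 10.43, 8.93 and 10.66 in SLAM, against 8.85, 8.56 and 8.71 in YPM. It rose 3.51-fold in deletion cells (log2 1.81, SE 0.37, adjusted p = 0.00411) and 2.45-fold in wild-type cells (log2 1.29, SE 0.37, adjusted p = 0.0415). The wild-type call of ATG42 was lost when any wild-type array other than SLAM replicate 2 was left out (adjusted p up to 0.155). It was also lost without deletion SLAM replicate 1 or deletion YPM replicate 1 or 2 (adjusted p up to 0.0596).

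ATG22, which exports amino acids from the vacuole, read 9.18, 9.22 and 9.39 in deletion cells in SLAM, against 8.22, 8.22 and 8.32 in YPM. In wild-type cells it read 9.42, 7.74 and 9.41 in SLAM, against 7.55, 7.36 and 7.45 in YPM. The YPM arrays of the deletion strain were all above those of the wild type, and the SLAM arrays, apart from wild-type replicate 2, were at a like level. Its difference was log2 1.01 in deletion cells (SE 0.36, adjusted p = 0.0565) and 1.40 in wild-type cells (SE 0.36, adjusted p = 0.0304). In the fit without wild-type SLAM replicate 2 both strains passed, at 1.01 in deletion cells (adjusted p = 0.000817) and 1.96 in wild-type cells (adjusted p = 0.000147). The wild-type call of ATG22 was lost when any other wild-type array was left out (adjusted p up to 0.123).

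ATG15, the lipase that opens the delivered vesicles, rose by log2 1.11 (SE 0.35, adjusted p = 0.0346) in deletion cells and 1.22 (SE 0.35, adjusted p = 0.0418) in wild-type cells. The deletion call of ATG15 was lost when any deletion array was left out (adjusted p up to 0.119). Its wild-type call was lost when any wild-type array other than SLAM replicate 2 was left out (adjusted p up to 0.162). Without deletion SLAM replicate 1 or deletion YPM replicate 1 or 2, ATG15 lost the wild-type call as well (adjusted p up to 0.0592). Its other 2 probe sets gave 1.39 and 1.07 in deletion cells and 1.25 and 1.27 in wild-type cells. ATG26, a sterol glucosyltransferase that S. cerevisiae does not need for autophagy, rose as well, by log2 1.48 (SE 0.25, adjusted p = 0.0019) in deletion cells and 1.31 (SE 0.25, adjusted p = 0.0124) in wild-type cells.

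The wild-type count of 14 depended on single arrays. It was 8, 1 and 7 without wild-type YPM replicates 1, 2 and 3, where 2.93%, 0.636% and 1.24% of all genes were higher. It was 7 and 4 without wild-type SLAM replicates 1 and 3, where 2.74% and 1.01% of all genes were higher. Without SLAM replicate 2 it was 21 (11.4% of all genes higher). In the main fit 5.23% of all genes were higher. Array weights, whose estimation stopped before it converged, gave that array the lowest weight and 27 calls (19.2% of all genes higher). Of the 14, only ATG33 passed whichever single array was left out. The calls of ATG9, ATG15, ATG22, ATG32, ATG38 and ATG42 were each lost when any wild-type array other than SLAM replicate 2 was left out. Those of ATG9, ATG15, ATG38 and ATG42 were also lost without deletion YPM replicate 1 or 2. The deletion count of 26 was 23 without deletion YPM replicate 3 (12.8% of all genes higher). That fit lost ATG2 (adjusted p = 0.0515), ATG5 (0.0504), ATG13 (0.111) and ATG15 (0.0579) and gained ATG29. The count was 17 without deletion SLAM replicate 1 and 16 without deletion YPM replicate 2. In those 2 fits 7.64% and 7.11% of all genes were higher, against 13.4% in the main fit. Of the 26, 15 passed whichever single array was left out: ATG1, ATG3, ATG4, ATG7, ATG8, ATG9, ATG19, ATG20, ATG26, ATG31, ATG32, ATG33, ATG34, ATG40 and ATG42. The deletion calls of ATG2, ATG5, ATG11, ATG13, ATG14, ATG15, ATG23, ATG36, ATG38, ATG39 and ATG45 were each lost in at least 1 of these fits. Without both arrays that stand apart the counts were 27 in deletion cells and 22 in wild-type cells, where 17.4% and 12.2% of all genes rose.

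Wild-type SLAM replicate 2 did not differ evenly over the ATG genes. It read at or below the highest wild-type YPM array for 15 of the 36 genes, against 6 and 5 for replicates 1 and 3. For 9 genes it read at or above the lower of replicates 1 and 3, and this set, which shares ATG17 with the 15, was ATG3, ATG4, ATG16, ATG17, ATG18, ATG19, ATG33, ATG41 and ATG45. The median SD of an ATG gene was 0.51 in wild-type SLAM, against 0.34, 0.20 and 0.18 in deletion SLAM, deletion YPM and wild-type YPM, where the medians over all genes were 0.39, 0.34, 0.23 and 0.21.

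The direct comparison of strains in SLAM asked whether ATG transcripts differed between MLY132 and MLY61 in that medium. Means were higher in deletion cells for 31 of 36 genes, with a median log2 difference of 0.49 (all genes -0.03), but 1 gene passed, ATG4, against 1.08% of all genes higher and 1.73% lower. With an unadjusted p under 0.05, 15 were higher and none lower, where 22.9% of all genes passed that mark in either direction. ATG4 was at least 1.68-fold higher in deletion cells (log2 0.75, SE 0.18, adjusted p = 0.049), with arrays at 6.12, 5.91 and 5.74 against 5.18, 5.19 and 5.16. This call was lost when any of 10 single arrays was left out (adjusted p up to 0.158), and the gene is dim. The groups did not overlap for 10 of the 36 genes, where 21.4% of all genes did not.

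ATG39 (log2 1.61, 95% interval 0.05 to 3.17), ATG1 (1.57, 0.55 to 2.58) and ATG14 (1.35, 0.36 to 2.35) had the largest strain differences in SLAM. Their adjusted p-values were 0.203, 0.0786 and 0.104. These values rest in part on wild-type SLAM replicate 2: without it they were 0.51, 0.84 and 0.83 (adjusted p = 0.525, 0.107 and 0.295), the median of the 36 genes was 0.33, and no ATG gene passed. The 5 genes with lower deletion means were ATG12, ATG18, ATG38, ATG41 and ATG45. Without that array ATG18 stood at 0.33 and ATG41 at 0.25, and the other members of this set stayed below 0.

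**Figure D5:**
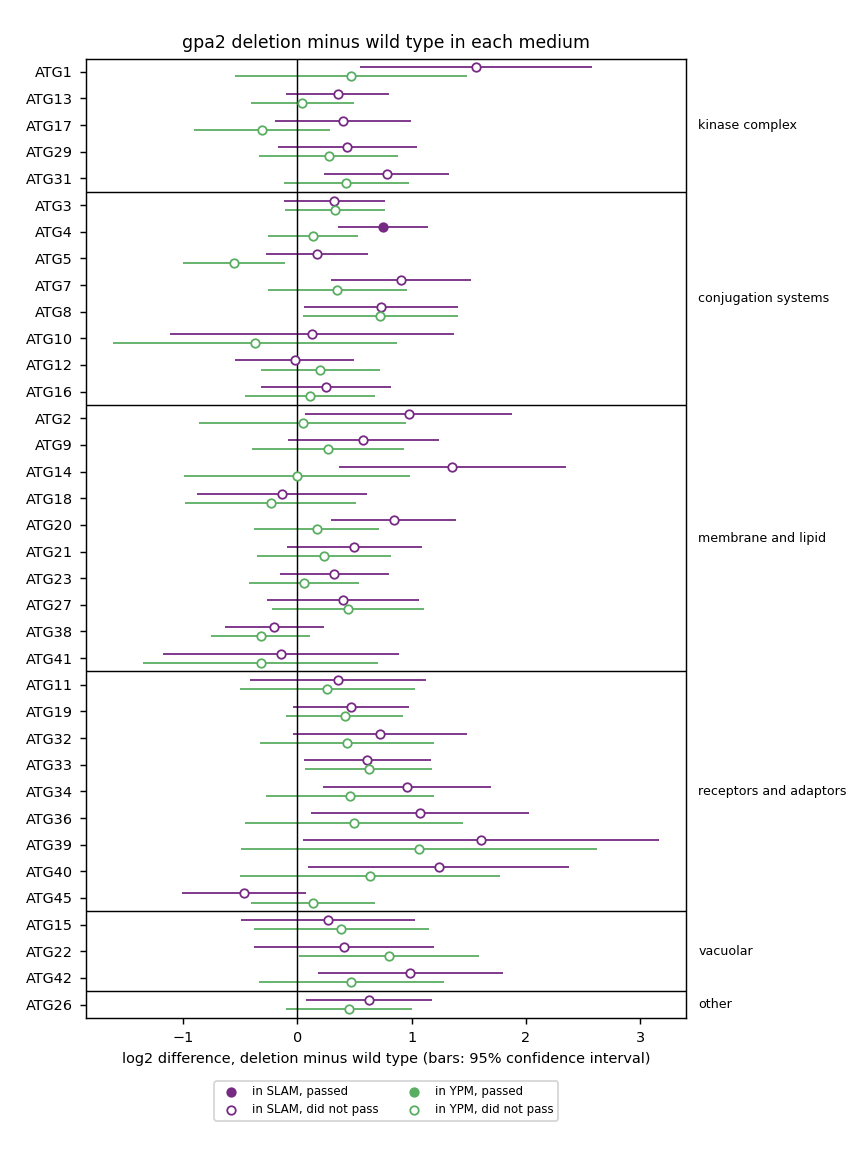
Deletion minus wild-type difference in log2 expression (horizontal axis) for each ATG gene, grouped by role, in SLAM (purple, upper mark of each pair) and in YPM (green, lower mark), with 95% confidence intervals from the limma fit. ATG4 in SLAM is the 1 filled mark, for an adjusted p under 0.05; most other marks lie right of 0 with intervals that are wide.

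In YPM, the rich medium, no ATG gene passed between strains in either direction, against 0% of all genes higher and 0.0177% lower (1 gene, GPA2). Means were higher in deletion cells for 29 of 36 genes, with a median of log2 0.27 (all genes -0.07). With an unadjusted p under 0.05, ATG8 (log2 0.73), ATG22 (0.80) and ATG33 (0.62) were higher and ATG5 (-0.55) was lower, 4 of 36 in all, where 3.89% of all genes passed that mark. The 3 values of a strain did not overlap those of the other for 18 of the 36 genes, where 19.2% of all genes did not. ATG8 was one of them, at 10.15, 9.87 and 10.57 in deletion cells and 9.18, 9.51 and 9.73 in wild-type cells. ATG33 was too, at 8.99, 9.04 and 9.97 in deletion cells and 8.75, 8.66 and 8.71 in wild-type cells, and without deletion YPM replicate 3 its difference of 0.62 was 0.30. That array also moved ATG36 (0.50, and 0.24 without it) and ATG40 (0.64, and 0.39 without it). The 95% intervals reached 0.39 to 1.56 either side of the estimate with 3 arrays a group. That width is not the limit of what the adjusted test could detect. The intervals of ATG8, ATG22, ATG33 and ATG5 excluded 0, and each of these genes had an adjusted p of 0.994.

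The difference between the strains' SLAM responses was positive for 29 of 36 genes, with a median of log2 0.28 (all genes 0.04), and none passed (limma, smallest adjusted p = 0.98; 0% of all genes passed in either direction). Unadjusted p-values under 0.05 (4.03% of all genes) were found for ATG5 (log2 0.73, 95% interval 0.09 to 1.36) and ATG4 (0.61, 0.05 to 1.17). ATG14 (1.36, -0.05 to 2.76) and ATG1 (1.10, -0.34 to 2.53) had the largest estimates. With wild-type SLAM replicate 2 left out, the median came to 0.09, ATG14 stood at 0.83 and ATG1 at 0.37, while ATG5 stood at 0.65 and ATG4 at 0.61.

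Of 36 other genes of the pathway, 7 rose in deletion cells and 5 in wild-type cells, and none fell (unadjusted, 1 was lower in deletion cells and 0 in wild-type cells). Of all genes, 13.4% rose in deletion cells and 5.23% in wild-type cells. The medians were log2 0.36 and 0.20. Whether these counts differ from those of the ATG genes was not tested. Of the 4 phosphatidylinositol 3-kinase and sorting nexin genes, SNX4, the partner of Atg20, rose in deletion cells (log2 0.91, SE 0.20, adjusted p = 0.00515). Among 5 TORC1 genes, TOR1, the kinase that restrains Atg1, rose in deletion cells (1.01, SE 0.25, adjusted p = 0.0116), with a wild-type difference of 0.02 (adjusted p = 0.969). Wild-type SLAM replicate 2 read 7.66 for TOR1, against 8.47 and 8.67 for replicates 1 and 3. The difference between the TOR1 responses did not pass (0.99, adjusted p = 0.98).

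Regulators of ATG transcription included 2 rises in each strain out of 11, where 13.4% of all genes rose in deletion cells and 5.23% in wild-type cells. RPH1, a histone demethylase that represses ATG genes in fed cells, rose by log2 1.38 (SE 0.38, adjusted p = 0.0182) in deletion cells, and RIM15, a kinase of nutrient starvation, by 0.92 (SE 0.22, adjusted p = 0.00925). In wild-type cells RIM15 rose by 0.88 (SE 0.22, adjusted p = 0.0277) and the GATA activator gene GAT1 by 1.95 (SE 0.40, adjusted p = 0.015). GAT1 differed by 1.06 in deletion cells, which did not pass (adjusted p = 0.0689). RPH1 differed by 0.60 in wild-type cells (adjusted p = 0.305), where SLAM replicate 2 read 6.96 against 8.90 and 8.06 for replicates 1 and 3. UME6, which represses ATG8, stood at -0.52 in deletion cells (adjusted p = 0.1) and -0.05 in wild-type cells (adjusted p = 0.911). None of 10 tethering and fusion genes passed in either strain; their differences ran from -0.29 to 0.42 in deletion cells and from -0.26 to 0.65 in wild-type cells.

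Cargo and vacuolar enzymes had 3 rises of 6 in each strain, where 13.4% of all genes rose in deletion cells and 5.23% in wild-type cells. AMS1, the alpha-mannosidase that Atg34 carries, rose by log2 1.69 in deletion cells (SE 0.37, adjusted p = 0.00525), followed by PRB1 (1.27, SE 0.32) and LAP3 (1.16, SE 0.27). In wild-type cells APE1, the cargo of Atg19, rose by 1.42 (SE 0.41, adjusted p = 0.0427), with PRB1 (1.31) and LAP3 (0.90). AMS1 differed by 1.17 in wild-type cells (adjusted p = 0.055) and APE1 by 0.62 in deletion cells (adjusted p = 0.283), and neither passed. AMS1 was also the single gene of the 36 to differ between strains in SLAM, 3.44-fold higher in deletion cells (log2 1.78, SE 0.37, adjusted p = 0.0373). It read 10.66, 10.52 and 10.51 in deletion cells against 9.58, 7.87 and 8.90 in wild-type cells, without overlap, and the call was lost in 8 of the 12 fits that leave out 1 array, wild-type SLAM replicate 2 among them. No gene of these 36 passed between strains in YPM or in the difference of responses.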

How the data were processed

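The authors deposited log2 expression values, 1 per probe set and array, for 9335 probe sets on 12 arrays, all of which were used; per the submitters' processing notes the software was GCOS 1.2, MAS5 and RMA, and which of them made these values is not given in the sources used here. Array medians lay between 7.34 and 7.51, so nothing further was applied. The 60 control probe sets, 328 with several gene symbols and 2443 with none were left out. The brightest probe set of a gene was kept, which gave 5656 genes; none of the ATG genes was read from a probe set that can share targets.

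The 12 arrays entered a single limma 3.58.1 fit (R 4.3.3) with a mean for each group, which was tested on simulated data; it has 8 residual and 4.11 prior degrees of freedom. Two-sided p-values received Benjamini-Hochberg adjustment across the 5656 genes, one comparison at a time. SE stands for the standard error of a log2 difference. The precision is limited by 3 arrays a group: the median standard error was 0.29.

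Members, roles and the lists of other genes came from general knowledge and were chosen with earlier results of these data known. All members could be named; values on every array are given for ATG1, ATG8, ATG9, ATG11, ATG13, ATG17, ATG19 and ATG32 and for up to 6 passing members with the largest change in a comparison. Further values given for strain differences were chosen after they were seen. Promoter and protein sequences were not used here. The alternatives covered quantile normalization, median centring, a floor at percentile 10, a filter on dim genes, all probe sets, the mean of a gene's probe sets, only the arrays of the comparison, a variance trend with robust moderation, array weights, an adjusted p under 0.01, a 2-fold filter, and each array left out; leaving out both arrays that stand apart was added with their values known.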

Additional observations from a re-analysis of the deposited data

How the results depend on the processing

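No ATG gene that passed changed direction under any alternative, and no ATG gene was called lower in SLAM under any of them. No paired analysis was possible because the labels give no replicate number shared between groups: the titles carry 12 different running numbers, with YPM and SLAM arrays alternating within a strain, and no label ties neighbours to 1 culture. The 26 ATG calls in deletion cells became 15 at an adjusted p under 0.01, and 16 to 28 with 1 array left out. At the ends of that range 7.11% and 17.3% of all genes were higher. The 14 wild-type calls became 7 on the wild-type arrays alone, 27 with array weights, 2 at an adjusted p under 0.01, 22 without both arrays that stand apart, and 1 to 21 with 1 array left out. At the ends of this wild-type range 0.636% and 11.4% of all genes were higher. The single strain call in SLAM became 0 with quantile normalization, with dim genes left out, with all probe sets, on the arrays of the comparison, at an adjusted p under 0.01, with the 2-fold filter and without both arrays that stand apart. It became 11 with array weights, where 8.29% of all genes were higher, against 1.08% in the main fit. With 1 array left out it was 0 to 2. The strain difference in YPM (0 calls) became 2 with array weights, 1 higher and 1 lower, where 2.3% of all genes were higher. The difference of responses (0 calls) became 2 as well, where 1.52% of all genes were higher. Both were 0 to 0 with 1 array left out. The array weights used for all of these counts came from an estimation that stopped before it converged. Other genes of the pathway, 7 in deletion cells, became 26 with array weights, whose estimation stopped before it converged (25 higher and 1 lower), 4 at an adjusted p under 0.01 and 6 to 10 with 1 array left out. The 5 in wild-type cells became 3 with all probe sets, 2 on the wild-type arrays alone, 12 with array weights, 0 at an adjusted p under 0.01, 3 with the 2-fold filter, 9 without both arrays that stand apart and 0 to 8 with 1 array left out. The strain call in SLAM (1 gene) became 0 with the floor, with all probe sets, on the arrays of the comparison, at an adjusted p under 0.01 and without both arrays that stand apart, 4 with array weights, and 0 to 2 with 1 array left out; in YPM and in the difference of responses, 0 became 2 and 1 with array weights and stayed at 0 with 1 array left out. The causes were not tested. Fewer genes enter the test with dim genes left out (4140, with 25 of the 36 ATG genes), and a value near 5.60 may not differ from background.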
